A study of Mus musculus with 4 samples.

Results

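Both arms of the miR-223 hairpin, mmu-miR-223-5p and mmu-miR-223-3p, were followed through small RNA libraries of mouse macrophages taken from leukaemic and normal bone marrow (BM) and spleen. They were picked by name and are 2 of the 847 rows of the deposited count table. The mice were C57BL/6J, with an age of 6 to 8 weeks in the labels. The leukaemic animals had received GFP+ MLL-AF9 acute myeloid leukaemia (AML) cells with no irradiation, and their macrophages were sorted at 18 days, in a model with a stated survival of 35 to 40 days. The MLL-AF9 fusion oncogene drives AML. The stated aim was a comparison of the miRNAs (microRNAs) of macrophages in leukaemia, there termed leukaemia-associated, with homeostasis. There were 4 groups with 1 library each, AML spleen, AML BM, normal spleen and normal BM. No difference below therefore has a replicate check, and every statement compares libraries, not conditions. The sources used here give neither the markers of the sort nor the number of mice behind a library.

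A miRNA hairpin is cut by Drosha and then by Dicer into a short duplex, of which 1 strand is loaded into an Argonaute protein and guides it to target mRNAs through its seed, bases 2 to 8. The gene Mir223 is known as a myeloid miRNA gene that is switched on by C/EBP and PU.1 factors during granulocyte and monocyte differentiation. It is known for high levels in neutrophils and for restraining granulocyte production and the NLRP3 inflammasome in mice. The 3p strand is the one historically named miR-223, and the 5p strand was named as its star form. In the RefSeq annotation the hairpin lies on the plus strand of chromosome X of mouse build GRCm38.p6, at chrX:96242817-96242926. In GENCODE M21 this position falls in an exon of both annotated transcripts of the non-coding gene F630028O10Rik. The nearest protein-coding genes are Vsig4, a complement receptor of tissue macrophages, 4276 bp towards higher coordinates, and Msn, 74264 bp towards lower ones. The sources used here name no build or annotation for the deposited counts, so these positions are those of the reference.

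The mature strands are shown because the report turns on which of them was read. The RefSeq sequences, 5′ to 3′ with the seed in capitals, are as follows.
miR-223-5p: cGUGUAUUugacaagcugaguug
miR-223-3p: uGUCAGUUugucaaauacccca
In the hairpin the capitals mark both mature strands, the 5p strand at bases 26 to 48 and the 3p strand at bases 68 to 89.
mir-223 hairpin: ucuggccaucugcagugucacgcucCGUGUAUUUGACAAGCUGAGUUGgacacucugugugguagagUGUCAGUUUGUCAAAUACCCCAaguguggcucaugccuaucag
The 5p strand spans chrX:96242842-96242864 and the 3p strand chrX:96242884-96242905. The strands are 23 and 22 bases long, so that their counts can be set side by side with little effect of length. Other effects of sequence on read counts were not tested, so reads of the arms need not equal their amounts in the cells. Their seeds differ, and of 1679 mature mouse miRNAs in RefSeq none (0) besides the arm itself had the seed of the 5p strand, and none (0) that of the 3p strand. The longest run of bases shared with any other mature miRNA was 10 for the 5p strand and 9 for the 3p strand, and no other row of the count table repeated the counts of either arm in all 4 libraries within 3% or 2 counts. The GC content was 43.5% for the 5p strand and 40.9% for the 3p strand, against a median of 49.0% over 208 miRNAs of known sequence that reached 30 counts in some library.

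The libraries held 180227 to 435492 counts in all, and 505 to 680 of the rows had a count. Levels are counts per 1000000 of the library (CPM) scaled with TMM factors (scaled CPM), on which 1 count was worth 2.55 to 5.18 CPM. Brackets give 95% exact intervals, which cover counting error only. A miRNA was called higher or lower between 2 libraries when its ratio was at least 2 or at most 0.5, its interval excluded 1 and its larger count was at least 30. The sort can be checked only in part from miRNAs, since miR-223 and most other macrophage miRNAs are shared with other myeloid cells. Of 13 macrophage and myeloid miRNAs, 12 had a row and 10 or 11 had a count in a given library, with miR-511-5p, whose gene lies in the macrophage gene Mrc1, at 0 in all but normal spleen, miR-147-3p at 0 in both BM libraries and miR-322-5p at 0 in normal spleen. Their summed share of reads was 3.38% to 4.94%. It rested mostly on the broadly expressed miR-21a-5p, except in normal spleen, where miR-146a-5p was higher. Markers of other cells were read in every library, and their summed level ran from 18228 to 108681 CPM for 6 lymphocyte miRNAs, from 7664 to 9784 CPM for 4 erythroid ones, from 2316 to 35819 CPM for 4 muscle ones, from 3642 to 31817 CPM for 7 stromal and endothelial ones, from 3798 to 28866 CPM for 7 epithelial and liver ones and from 8766 to 57447 CPM for 5 blast and progenitor ones. All members of these 6 lists had a count in every library.

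The 5p strand had more reads than the 3p strand and was highest in macrophages of leukaemic BM. The row mmu-miR-223-5p had 10 counts in AML spleen, 149 in AML BM, 36 in normal spleen and 42 in normal BM. On the scaled level this was 51.8 CPM [24.9 to 95.3] in AML spleen, 531 CPM [449 to 624] in AML BM, 91.8 CPM [64.3 to 127] in normal spleen and 203 CPM [146 to 274] in normal BM. Both BM libraries thus stood above both spleen libraries. In the order of levels AML BM stood above normal BM by more than counting error, with a ratio of 2.62 [1.85 to 3.79]. So did normal BM above normal spleen, by 2.21 [1.38 to 3.54], whereas the difference of AML spleen from normal spleen did not exceed it, with normal spleen at 1.77 [0.86 to 4.0] times AML spleen. The arm ranked 247th of 535 detected rows in AML spleen, 107th of 547 in AML BM, 190th of 680 in normal spleen and 153rd of 505 in normal BM. It took 0.0549% [0.0465% to 0.0645%] of the reads of AML BM, the library where its share was highest.

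The 3p strand was read a few times in each library and was highest in normal spleen. The row mmu-miR-223-3p had 4 counts in AML spleen, 12 in AML BM, 28 in normal spleen and 10 in normal BM. Its level was 20.7 CPM [5.65 to 53.1] in AML spleen, 42.8 CPM [22.1 to 74.8] in AML BM, 71.4 CPM [47.5 to 103] in normal spleen and 48.2 CPM [23.1 to 88.7] in normal BM. No neighbours in this order differed beyond counting error. The lowest and the highest library did, with a ratio of AML spleen over normal spleen of 0.29 [0.074 to 0.83]. With fewer than 30 counts everywhere, the arm could not be called in any comparison.

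**Figure D1:**
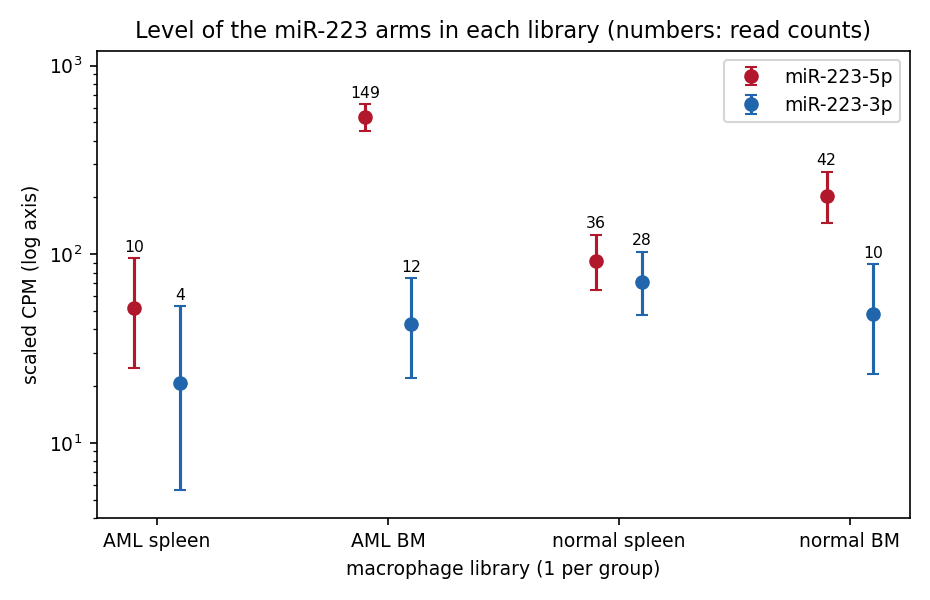
Scaled CPM (log axis) of miR-223-5p (red) and miR-223-3p (blue) in the 4 libraries, 1 per group, with 95% exact Poisson intervals that cover counting error only and the read count above each point. The 5p strand stands at 51.8 CPM in AML spleen and 531 CPM in AML BM, while the intervals of the 3p strand overlap across all libraries. Overlap of levels does not settle a ratio, and that of AML spleen over normal spleen was 0.29 [0.074 to 0.83] for the 3p strand.

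Macrophages of leukaemic BM had more miR-223-5p than those of normal BM, at 531 CPM in AML BM against 203 CPM in normal BM. The log2 ratio was 1.39 [0.89 to 1.92], with 18 of the 216 miRNAs compared above it and 197 below. In this comparison 25.5% of the 216 miRNAs were called in either direction, 13.4% higher and 12.0% lower, and miR-223-5p was among the higher ones. The median log2 ratio of all 216 was 0.00. For miR-223-3p, at 42.8 CPM in AML BM against 48.2 CPM in normal BM, the log2 ratio was -0.17 [-1.51 to 1.20], an interval that overlaps that of the 5p strand. Scaling on totals that leave out the 10 most abundant miRNAs turned its sign, to 0.024. Summed over both arms, a sum chosen after the data were seen, miR-223 had 161 counts in AML BM against 52 in normal BM, and the log2 ratio was 1.20 [0.74 to 1.68]. Marker levels moved between these libraries too. Lymphocyte miRNAs summed to 43765 CPM in AML BM against 18228 CPM in normal BM, and erythroid ones to 7664 CPM in AML BM against 9784 CPM in normal BM. Muscle miRNAs summed to 10535 CPM in AML BM against 35819 CPM in normal BM, and stromal and endothelial ones to 22057 CPM in AML BM against 31817 CPM in normal BM. Epithelial and liver miRNAs summed to 18291 CPM in AML BM against 28866 CPM in normal BM, and blast and progenitor ones to 41194 CPM in AML BM against 57447 CPM in normal BM. A sum rests mostly on its most abundant members. By member, 2 of 6 lymphocyte miRNAs were called higher and 4 of 4 muscle ones, 2 of 7 stromal and endothelial ones, 2 of 7 epithelial and liver ones and 1 of 3 erythroid ones (miR-451a, at -2.15) were called lower, while 0 of 5 blast and progenitor ones were called. Of the last list miR-196b-5p, which is raised in MLL-rearranged leukaemia, had 196 counts in AML BM against 80 in normal BM, at a log2 ratio of 0.86. The rest of that list went the other way, with miR-10a-5p at -0.46, miR-10b-5p at -0.72, miR-99a-5p at -0.15 and miR-100-5p at -0.70. What part all these marker lists had in the result was not tested. In such bulk samples fewer cells of a type and less RNA per cell cannot be told apart.

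Macrophages of leukaemic spleen had 51.8 CPM of miR-223-5p, against 91.8 CPM in normal spleen, a difference within counting error. The log2 ratio was -0.82 [-2.0 to 0.22], beside a median of -0.25 over 216 miRNAs, of which 46.3% were called in either direction, 25.0% higher and 21.3% lower. With DESeq2 size factors it became -1.06 [-2.24 to -0.02] and would have been called lower, as it would when both arms were summed, at -1.17 [-2.12 to -0.32] from 14 counts in AML spleen and 64 counts in normal spleen. The 3p strand, at 20.7 CPM in AML spleen against 71.4 CPM in normal spleen, gave a log2 ratio of -1.78 [-3.76 to -0.27], and its interval excluded no change. It rested on 4 counts in AML spleen and 28 in normal spleen and passed the call rule only with a minimum of 10 counts or none. Lymphocyte miRNAs summed to 50068 CPM in AML spleen against 108681 CPM in normal spleen, and erythroid ones to 8842 CPM in AML spleen against 9388 CPM in normal spleen. Muscle miRNAs summed to 12279 CPM in AML spleen against 2316 CPM in normal spleen, and stromal and endothelial ones to 22012 CPM in AML spleen against 3642 CPM in normal spleen. Epithelial and liver miRNAs summed to 15228 CPM in AML spleen against 3798 CPM in normal spleen, and blast and progenitor ones to 37463 CPM in AML spleen against 8766 CPM in normal spleen. By member, 4 of 6 lymphocyte miRNAs were called lower, and 3 of 3 muscle, 6 of 6 stromal and endothelial, 5 of 6 epithelial and liver and 4 of 5 blast and progenitor miRNAs were called higher. Members were called against their sums in 2 lists. The erythroid miR-451a was called higher at 1.96. Of the blast and progenitor list miR-196b-5p was called lower at -1.74, its counts being 5 in AML spleen against 34 in normal spleen. Without a call, the lymphocyte miR-150-3p at 0.40 and miR-342-5p at 0.46 and the epithelial miR-200c-3p at -0.95 also ran against their sums. The part of these markers was not tested.

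The AML-to-normal ratio of miR-223-5p was lower in the spleen than in the BM. The ratio of the spleen was 0.215 times that of the BM [0.0888 to 0.493], a log2 gap of -2.22 [-3.49 to -1.02]. The intervals of its log2 ratio in the tissues were -2.0 to 0.22 in spleen and 0.89 to 1.92 in BM. Among 186 miRNAs compared in both tissues the median gap was -0.38, 21 had a gap below that of miR-223-5p and 164 one above, and 69 had a gap of at least 4-fold in either direction. For miR-223-3p the gap was -1.61 [-3.95 to 0.54] and did not exceed counting error.

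**Figure D2:**
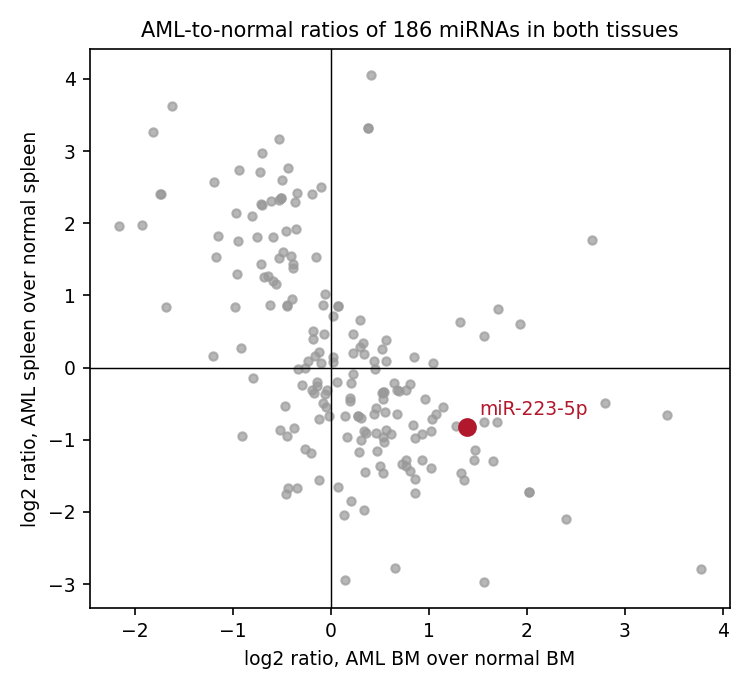
Log2 ratio of AML spleen over normal spleen (vertical) against AML BM over normal BM (horizontal) for 186 miRNAs that reached 30 counts in either library of each pair, each point 1 miRNA. miR-223-5p (red) stands at 1.39 on the BM axis and -0.82 on the spleen axis, at the lower right together with many other miRNAs.

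Without leukaemia, miR-223-5p was lower in macrophages of the spleen than in those of the BM, at 91.8 CPM in normal spleen against 203 CPM in normal BM. The log2 ratio was -1.14 [-1.83 to -0.46], and its interval excluded no change under all 4 scalings. The 2-fold call ended with DESeq2 size factors, at -0.91 [-1.59 to -0.23], and on totals that leave out the 10 most abundant miRNAs, at -0.96 [-1.64 to -0.28]. Calls were frequent here, with 66.2% of 234 miRNAs called in either direction, 30.8% higher and 35.5% lower. The 3p strand, at 71.4 CPM in normal spleen and 48.2 CPM in normal BM, had a log2 ratio of 0.57 [-0.52 to 1.77], opposite in sign to that of the 5p strand and within counting error. Summed over both arms, the log2 ratio was -0.62 [-1.17 to -0.06], below 2-fold. Lymphocyte miRNAs summed to 108681 CPM in normal spleen against 18228 CPM in normal BM, whereas the sums of the other 5 lists of other cells were lower in normal spleen. For muscle miRNAs these were 2316 CPM in normal spleen against 35819 CPM in normal BM. By member, 5 of 6 lymphocyte miRNAs were called higher, and 4 of 4 muscle, 7 of 7 stromal and endothelial, 6 of 7 epithelial and liver and 5 of 5 blast and progenitor miRNAs were called lower, among the last miR-196b-5p at -2.15. Of the erythroid list miR-451a was called lower at -3.43 and miR-486a-5p higher at 1.01. Their part was not tested.

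In leukaemic mice the difference between the tissues was larger, with 51.8 CPM of miR-223-5p in AML spleen against 531 CPM in AML BM. The log2 ratio was -3.36 [-4.45 to -2.44], a level 10.3 times lower in AML spleen. Of 211 miRNAs compared, 4 had a lower ratio and 206 a higher one, 35.1% were called in either direction, 13.7% higher and 21.3% lower, and the median log2 ratio was -0.12. The call held under all scalings, with log2 ratios between -3.39 and -3.29. For miR-223-3p, with 20.7 CPM in AML spleen and 42.8 CPM in AML BM, the log2 ratio was -1.05 [-3.13 to 0.68]. Marker lists moved less uniformly here than their sums show. Lymphocyte miRNAs summed to 50068 CPM in AML spleen against 43765 CPM in AML BM, but 3 of 6 were called higher (miR-150-5p at 2.68, miR-150-3p at 2.82 and miR-342-3p at 2.37) and miR-181b-5p was called lower at -1.27. Blast and progenitor miRNAs summed to 37463 CPM in AML spleen against 41194 CPM in AML BM. Of these miR-196b-5p was called lower at -4.75, from 5 counts in AML spleen against 196 in AML BM. In every pair of libraries compared its log2 ratio had the sign of that of miR-223-5p, which held for no other member of this list. The other 4 were not called, with miR-10a-5p at -0.20, miR-99a-5p at -0.74, miR-10b-5p at 0.26 and miR-100-5p at 0.34. Of the erythroid list miR-144-3p was called lower at -3.63, and of the muscle list miR-133a-3p was called higher at 1.09. None (0) of the 6 stromal and endothelial and the 6 epithelial and liver miRNAs compared were called. The macrophage and myeloid list summed to 46160 CPM in AML spleen against 32646 CPM in AML BM. Most of this was the broadly expressed miR-21a-5p, at 35644 CPM in AML spleen and 23669 CPM in AML BM. By member, 1 of 8 was called higher and 1 lower, the latter being miR-223-5p itself. The part of these markers in the result was not tested.

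**Figure D3:**
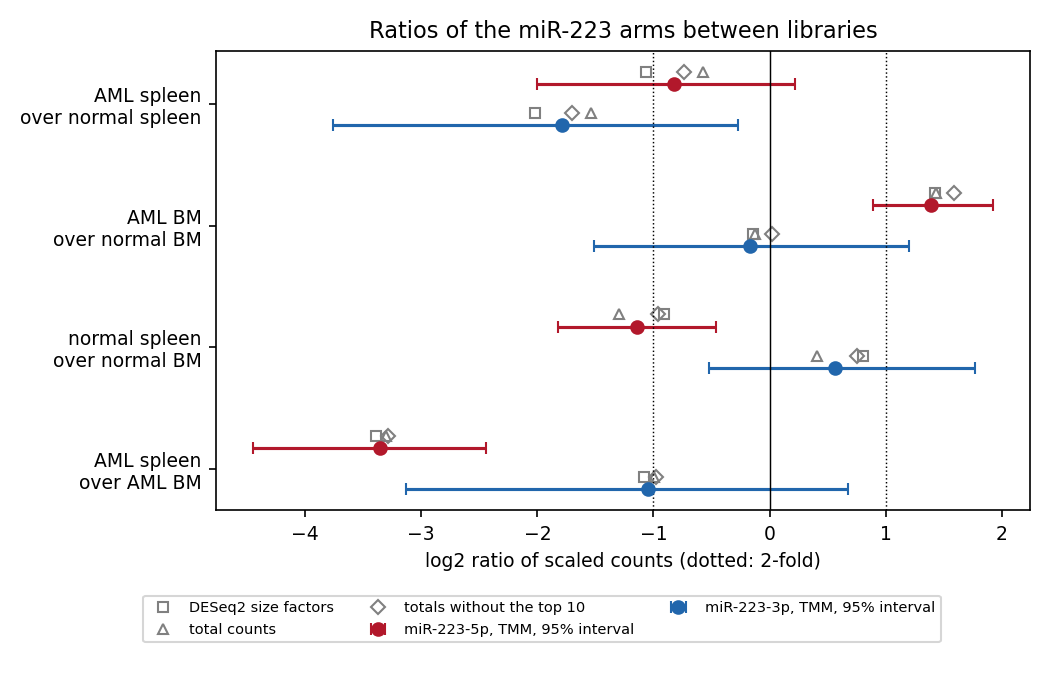
Log2 ratios of miR-223-5p (red) and miR-223-3p (blue) for 4 pairs of libraries with TMM scaling and 95% exact conditional intervals, and the same ratios under 3 other scalings (open grey symbols just above). The 5p strand lies at 1.39 for AML BM over normal BM and at -3.36 for AML spleen over AML BM, beyond the dotted 2-fold lines under every scaling, while the 3p intervals are wide.

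The balance of the arms differed between libraries. The 5p strand made up 71.4% [41.9% to 91.6%] of miR-223 reads in AML spleen (10 of 14), 92.5% [87.3% to 96.1%] in AML BM (149 of 161), 56.3% [43.3% to 68.6%] in normal spleen (36 of 64) and 80.8% [67.5% to 90.4%] in normal BM (42 of 52), by exact Clopper-Pearson intervals. It had the more reads in 4 of 4 libraries, with 237 over all 4 against 54 of the 3p strand. The strand read more was thus the one named as the star form, and the cause of this was not tested. Its share of reads exceeded an even balance beyond counting error in both BM libraries but not in either spleen library. Because both arms are read in the same library, this balance does not depend on the scaling. The ratio of 5p to 3p reads was 12.4 in AML BM and 4.20 in normal BM, an odds ratio of 2.96 [1.06 to 8.02]. It was 1.29 in normal spleen and 4.20 in normal BM, an odds ratio of 0.306 [0.117 to 0.764]. Between AML spleen, at 2.50, and normal spleen, at 1.29, the odds ratio was 1.94 [0.490 to 9.33], and between AML spleen, at 2.50, and AML BM, at 12.4, it was 0.201 [0.0487 to 1.03], and neither exceeded counting error. The last of these passed it when 1 count was added to each of the 4 counts, at a log2 odds ratio of -2.39.

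Set against other hairpins, the mean 5p share of miR-223 lay near the middle and its range between libraries was wider than that of most. The mean of its 4 library shares was 75.2% with an SD of 15.3 points between libraries. Of 86 other hairpins with at least 30 reads of both arms in every library, 49 had a mean 5p share above 50%, 45 had one below that of miR-223 and 41 one above. The next below in order were miR-17 at 64.9%, miR-1843b at 64.1% and miR-1306 at 63.5%, and the next above were miR-574 at 75.5%, miR-150 at 78.8% and miR-1843a at 79.7%. Other hairpins of blood cells stood on both sides, with the pan-haematopoietic miR-142a at a mean of 50.6%, the erythroid miR-486a at 50.6% and the lymphocyte miR-342 at 82.8%. Also of the macrophage and myeloid list, miR-27a stood at 5.64% and the broadly expressed miR-21a at 99.9%. The share of miR-223 ranged over 36.3 points between its lowest and highest library, against a median of 5.08 points over the 86 hairpins, of which 4 ranged wider. This range is set by AML BM and normal spleen, with 161 miR-223 reads in AML BM and 64 in normal spleen. The counts of miR-223 are smaller than those of most hairpins compared, and with 14 reads in AML spleen it would itself miss their minimum, so counting error widens its range more than theirs.

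**Figure D4:**
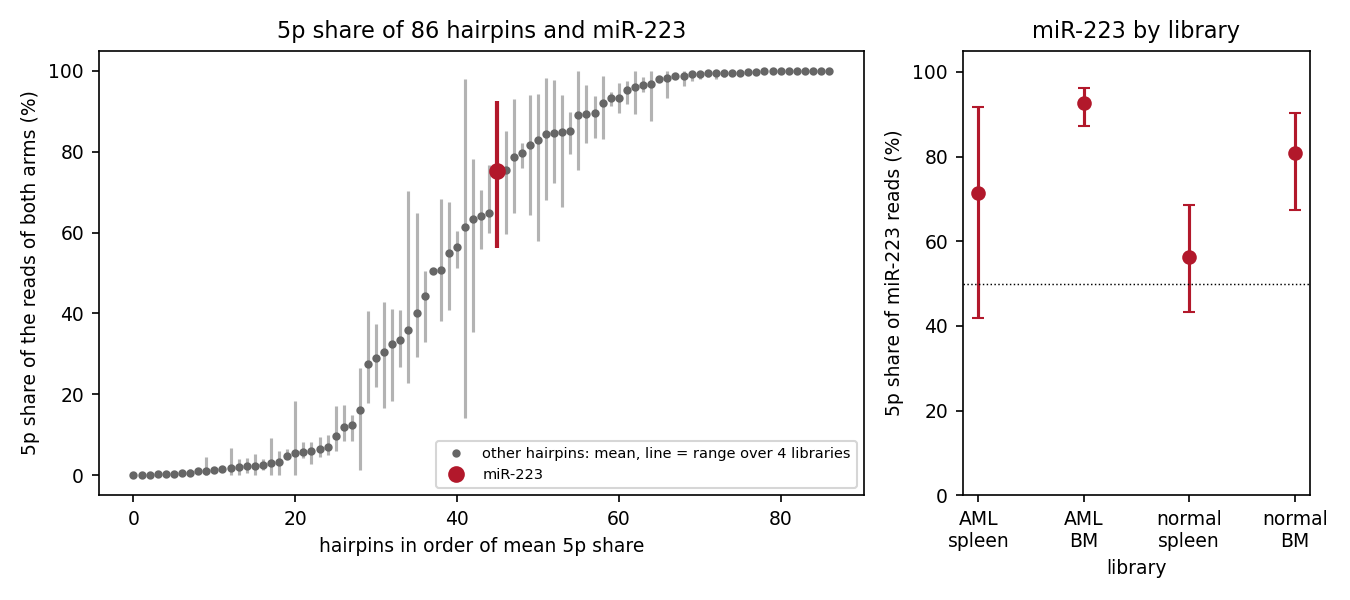
Left, the 5p share of the reads of both arms (%) for 86 hairpins and miR-223 in order of their mean over 4 libraries (points), with lines from the lowest to the highest library. Right, the 5p share of miR-223 in each library with 95% exact binomial intervals and a dotted line at an even balance. miR-223 (red) has a mean of 75.2% in the middle of the order and a range of 36.3 points, from normal spleen to AML BM.

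The other macrophage and myeloid miRNAs shared some directions of miR-223-5p and not others. Of the 8 of this list with at least 30 counts, miR-223-5p included, 3 were called higher in AML BM than in normal BM (miR-223-5p, miR-155-5p and the 3p arm of miR-142a) and 0 lower, with a median log2 ratio of 0.81 against 0.00 over all 216 miRNAs, of which 13.4% were called higher and 12.0% lower. Between AML spleen and normal spleen 1 was called higher and 4 lower, with a median of -1.05 against -0.25 over all 216, of which 25.0% were called higher and 21.3% lower. Called in opposite directions in the 2 tissues were miR-155-5p, at 2.40 in BM and -2.09 in spleen, and the 3p arm of miR-142a, at 2.02 and -1.73, which are further from 0 than the 1.39 and -0.82 of miR-223-5p. Opposite calls were not confined to this list. The lymphocyte miR-181a-5p stood at 1.47 in BM and -1.14 in spleen, and the erythroid miR-451a at -2.15 and 1.96. Of 186 miRNAs compared in both tissues, 69 had a gap of at least 4-fold in either direction. Between normal spleen and normal BM 4 were called higher and 2 lower, with a median of 1.72 against 0.19 over all 234, and these 6 of 8 stand beside 66.2% called over all miRNAs. The 2 lower ones were miR-223-5p and miR-21a-5p. Between AML spleen and AML BM 1 was called higher, miR-142a-3p, and 1 lower, miR-223-5p, with a median of 0.53 against -0.12 over all 211, of which 13.7% were called higher and 21.3% lower.

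The haematopoietic miR-142a-3p, whose counts the row miR-142b repeats, stood at 1311 CPM in AML spleen, 606 CPM in AML BM, 4346 CPM in normal spleen and 149 CPM in normal BM. Its partner miR-142a-5p stood at 1104 CPM in AML spleen, 617 CPM in AML BM, 2670 CPM in normal spleen and 323 CPM in normal BM. Both were thus highest in normal spleen and lowest in normal BM. The same order of extremes was seen for miR-155-5p, which inflammatory signals induce in macrophages, at 492 CPM in AML spleen, 357 CPM in AML BM, 2102 CPM in normal spleen and 67.5 CPM in normal BM. The NF-kB feedback inhibitor miR-146a-5p stood at 4183 CPM in AML spleen, 2311 CPM in AML BM, 17223 CPM in normal spleen and 2107 CPM in normal BM. The broadly expressed miR-21a-5p, at 35644 CPM in AML spleen, 23669 CPM in AML BM, 13155 CPM in normal spleen and 38799 CPM in normal BM, was lowest in normal spleen. The widely expressed miR-24-3p, whose counts another row repeats, peaked in AML BM like miR-223-5p, at 2363 CPM in AML spleen, 3534 CPM in AML BM, 2925 CPM in normal spleen and 2209 CPM in normal BM, and its AML-to-normal log2 ratios had the same signs, -0.31 in spleen and 0.68 in BM, without a call. Its genomic neighbour miR-27a-3p varied little, between 895 and 959 CPM. For AML spleen over AML BM the log2 ratios of these 7 miRNAs ran from -0.58 for miR-24-3p through -0.02 for miR-27a-3p to 1.11 for miR-142a-3p, while that of miR-223-5p was -3.36. In AML BM miR-223-5p had 149 counts and miR-142a-3p 170, and in normal BM they had 42 and 31, whereas in AML spleen they had 10 and 253 and in normal spleen 36 and 1704.

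The miRNAs with a pattern most like that of miR-223-5p were found by the root mean square difference of log2 levels centred on their mean over the 4 libraries, among 244 miRNAs that reached 30 counts in some library. The 5 nearest were miR-7658-5p at a distance of 0.27, miR-351-5p at 0.35, miR-125a-5p at 0.52, miR-3473e at 0.59 and miR-450a-5p at 0.61, against a median distance of 1.35. The counts of miR-351-5p were 20 in AML spleen, 178 in AML BM, 79 in normal spleen and 91 in normal BM. Those of miR-125a-5p were 93 in AML spleen, 497 in AML BM, 219 in normal spleen and 319 in normal BM. All 5 were highest in AML BM, which follows from their choice by likeness to miR-223-5p and is no separate result. By RefSeq, miR-351-5p and miR-450a-5p lie on chromosome X, as miR-223 does, but far from it, at chrX:53053315-53053338 and chrX:53048206-53048227, and 24 of 207 compared miRNAs with a known position lie on that chromosome. For miR-223-3p the 5 nearest were miR-20b-5p at 0.07, miR-350-5p at 0.21, miR-140-5p at 0.21, miR-1839-5p at 0.21 and let-7c-5p at 0.25, against a median of 0.92, so the arms of miR-223 had no neighbour in common. With 4 points per profile and as few as 4 counts for the 3p strand, these distances describe the 4 libraries alone.

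**Figure D5:**
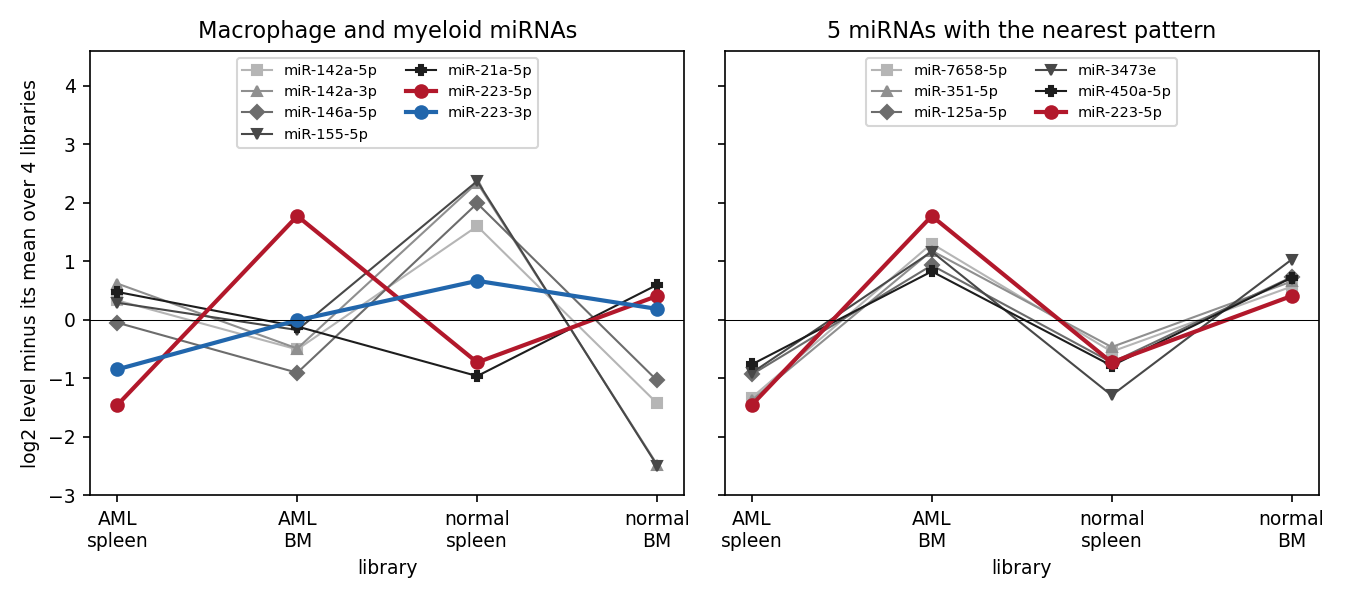
Log2 level (with 1 count added) minus its mean over the 4 libraries, for miR-223-5p (red) and miR-223-3p (blue) with 5 macrophage and myeloid miRNAs (left) and for miR-223-5p with its 5 nearest miRNAs (right). On the left miR-223-5p peaks in AML BM, where miR-142a, miR-146a-5p and miR-155-5p lie below their mean. On the right all 6 miRNAs peak in AML BM, as the choice of the 5 by likeness to miR-223-5p favours.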

How the data were processed

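Read counts per miRNA row were taken as the authors deposited them, with 847 rows for each of 4 libraries, of which 804 carry known mouse miRNA names and 43 are predicted. The TPM values, named so per the file headers, equalled the count per 1000000 of the library total and were not used further. No aligner, counter, build or miRNA annotation is given in the sources used here. Groups were taken from sample titles. Library totals were scaled with TMM factors (edgeR 4.0.16, R 4.3.3), from 0.900 to 1.07. Ratios carry 95% exact conditional intervals (SciPy 1.17.1), as do ratios of ratios and arm odds ratios. The interval code for ratios between 2 libraries was tested on simulated data, whereas that for ratios of ratios and arm odds ratios was not. A call needed a 2-fold ratio, an interval excluding 1 and a larger count of at least 30. Without molecular identifiers, intervals cover counting error only. Alternatives were DESeq2 1.42.0 size factors, total counts, totals without the 10 most abundant miRNAs and minimum counts of 10 or none. RefSeq sequences matched 673 of 804 known rows, both miR-223 arms included. Named were both arms, the 5 nearest patterns, 3 neighbouring hairpins on each side and fixed list members. The members and lists were chosen with earlier results of these data known.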

Additional observations from a re-analysis of the deposited data

Results flagged for a closer look

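The AML-to-normal difference of miR-223-5p ran in opposite directions in the tissues, with a log2 ratio of -0.82 in spleen and 1.39 in BM and a gap of -2.22 [-3.49 to -1.02]. The gap was larger than counting error, but with 1 library per group it could not be tested across replicates, and the spleen ratio by itself was within counting error.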

How the results depend on the processing

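No paired analysis was possible because the labels give no replicate numbers and each group is 1 library. For miR-223-5p the ratio of AML spleen over normal spleen passed the call rule with DESeq2 size factors (-1.06) and with both arms summed (-1.17). The ratio of normal spleen over normal BM lost its call with DESeq2 size factors (-0.91), without the 10 most abundant miRNAs (-0.96) and with both arms summed (-0.62), the sums being chosen after the data were seen. The ratio of miR-223-3p passed in AML spleen over normal spleen with a minimum of 10 counts or none (-1.78) and changed sign in AML BM over normal BM when the 10 most abundant miRNAs were left out of the totals (0.024). The log2 odds ratio of the arms passed in AML spleen over AML BM with 1 count added (-2.39). With at least 30 counts in every library, 1 of the 5 nearest patterns remained, miR-125a-5p, since the other 4 miss that minimum. Scaling cannot change these distances by construction. The calls of miR-223-5p in AML BM over normal BM and in AML spleen over AML BM, and its gap between the tissues, held under the 3 other scalings. Minimum counts cannot change the ratios themselves. With at least 10 reads per library, 50 hairpins had a lower 5p share than miR-223 and 55 a higher one (47.6% lower), in place of 45 and 41 (52.3% lower).

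Other scalings shifted all log2 ratios of AML spleen over normal spleen by -0.24 to 0.25, of AML BM over normal BM by up to 0.20 and of normal spleen over normal BM by -0.16 to 0.24. The split of calls, 54 higher and 46 lower in AML spleen, became 51 higher and 68 lower with DESeq2 factors, or 64 higher and 36 lower on total counts, and the split in AML BM, 29 higher and 26 lower, became 39 and 19 without the 10 most abundant miRNAs. With a minimum of 10 counts or none, calls numbered 151 and 179 in place of 100 for AML spleen over normal spleen, 93 and 119 in place of 55 for AML BM over normal BM, and 113 and 141 in place of 74 for AML spleen over AML BM, and with none 259 in place of 155 for normal spleen over normal BM. The planned check of GC content against arm balance is void, since 66 of 86 hairpins had both sequences. The 3p counts of 4 to 28 limit every statement on that arm.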

Other observations

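The hairpins whose 5p share ranged wider over the libraries than that of miR-223, named after their values were seen, were miR-455 (83.9 points), miR-674 (47.5), miR-1306 (42.8) and miR-342 (36.4). The lymphocyte hairpin miR-342 had a 5p share of 85.8% in AML spleen, 94.3% in AML BM, 57.9% in normal spleen and 93.2% in normal BM, from 468 or more reads in each library. It was thus lowest in normal spleen and highest in AML BM, as miR-223 was. Among the 86 hairpins, normal spleen was the lowest library for 30 and AML BM the highest for 15. For miR-455 the 5p share was 56.0% in AML spleen, 77.6% in AML BM, 14.1% in normal spleen and 98.0% in normal BM.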
